A study of Danio rerio with 2 samples.

Results

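The Tie receptors and the angiopoietins form a ligand and receptor system of blood vessels, which is described here by 5 zebrafish genes: the receptor genes tek and tie1 and the ligand genes angpt1, angpt2a and angpt2b. They were chosen by name, from the protein names that the count tables give to each transcript, and are 5 of the 22017 genes with a read in either library. All 5 had at least 1 read in GFP+ cells, and 3 of them (tie1, angpt1 and angpt2b) had 10 or more reads over both libraries. The embryos carried the transgene Tg(fli1a:EGFP)y1, in which EGFP is driven from the fli1a promoter (fli1a is an ETS factor gene active in endothelial and blood precursors). In the GFP+ cells, the study reported high expression of genes from vessel, blood and pharyngeal arch cells. Dissociated embryos of 22 to 24 hpf were sorted by green fluorescence, and RNA of GFP+ cells (labelled endothelial) and of GFP- cells (labelled non-endothelial) was sequenced as 1 library per group. Both groups came from embryos of the same line, stage and genotype, with no treatment named.

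Tie receptors are receptor tyrosine kinases of the endothelium. The product of tek, called Tie2, binds angiopoietins, whereas Tie1 binds them poorly and forms complexes with Tie2. In mammals, angiopoietin 1 is made largely by cells around the vessel and activates Tie2, and angiopoietin 2 is released by endothelial cells and can block or activate it according to context. Signals from the activated receptor pass through PI3-kinase and Akt to the FoxO1 transcription factor and support vessel stability. In zebrafish, tie1 acts in heart and lymphatic vessel development, in the latter together with the secreted protein Svep1.

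The GFP+ library held 4.44 M counted reads and the GFP- library 4.11 M (M for 1000000), so that a floor of 3 reads equals 0.6755 and 0.7307 RPM, the reads per M counted reads. Of the 19 endothelial markers listed, 14 were matched in the tables and 12 of these were called higher in GFP+ cells, with a summed level of 3941 RPM against 558 RPM. An exception was efnb2a, the ephrin B2 gene of arteries, with 1686 and 1543 reads. The other was cdh5, the VE-cadherin gene that defines endothelium, with 5 reads (GFP+) and 0 reads (GFP-). Not matched, and so not assessed, were pecam1, cldn5b, flt4, etv2 and fli1a, the gene whose promoter drives the EGFP. Blood cells were also in the GFP+ population: 15 of 16 matched blood markers were called higher (summed level 11298 RPM against 204.6 RPM), and hemoglobin took 6.25% and 0.0537% of the reads. Of 17 matched markers of mural cells, mesenchyme and neural crest, 2 were higher (pdgfrb and cspg4) and 3 lower (foxd3, twist2 and sox10). The 17 markers summed to 1185 RPM (GFP+) and 1465 RPM (GFP-). Most of both sums came from notch3 (643.5 and 718.5 RPM) and tagln (261.4 and 413.6 RPM), which were not called. Lower too were 5 of 8 notochord and floor plate markers and 10 of 14 neural and muscle markers (1019 and 3579 RPM). Over all genes, 6.77% were called higher and 7.39% lower by the rule given below. EdgeR's exact test called fewer genes, 314 higher and 72 lower among all genes. With it 11 endothelial and 12 blood markers stayed higher, and 1 notochord marker (tbxta) and 1 muscle marker (myog) stayed lower. Of the 17 mural and mesenchyme markers 0 were called. The part of these cell types, and of pharyngeal arch cells, in the values below was not tested. In sorted bulk cells, fewer cells of a type and less RNA per cell cannot be told apart.

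Of the 5 genes, tie1 was called higher in GFP+ cells, and tek, angpt1, angpt2a and angpt2b were not called in either direction. A gene was called with a log2 ratio of GFP+ over GFP- above 1 or under -1 (0.5 reads added, scaled to library totals) together with a Benjamini-Hochberg adjusted p below 0.001 over all genes, taken from Fisher's exact test (two-sided) on the reads. Over all 22017 genes, 6.77% were called higher and 7.39% lower by this rule, so that the 1 call among 5 genes is too few to read as a share. By the fold alone, 1 of the 3 genes with 10 or more reads lay above 1 and 0 lay under -1, against 16.2% and 17.6% of the 15252 genes with as many reads. With 1 library per group, this test compares the libraries and not the conditions, there is no replicate check, and intervals cover counting error only.

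Tie1 held most of the counted receptor reads, and almost all of its own reads were in the GFP+ library. The gene (ENSDARG00000004105) occupies bases 33680462 to 33706271 of chromosome 6 (Zv9, reverse strand), with 1 listed transcript of 4952 bases. In the GFP+ library 950 of its reads were counted, against 7 in the GFP- library. These reads equal 43.2 RPKM (95% interval 40.5 to 46.0) and 0.344 RPKM (0.138 to 0.709). The GFP+ level was thus 125.5-fold higher, with an interval of 60.7-fold to 313-fold. The GFP+ library held 99.3% of the tie1 reads at unequal library totals. This is a share of counted reads and not of the tie1 transcripts of the embryo, since the sizes of the sorted populations do not enter it. The log2 ratio was 6.87 (5.92 to 8.29), with an adjusted p of 1.59e-253 by Fisher's exact test. With edgeR's exact test at an adjusted p under 0.05, which allows an assumed biological coefficient of variation of 0.4, tie1 was called as well (log2 ratio 7.05, adjusted p 1.04e-06). In GFP+ cells, tie1 lay above 91.2% of the 20282 genes with reads, whereas in GFP- cells it lay above 14.98% of 20263 genes.

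**Figure D1:**
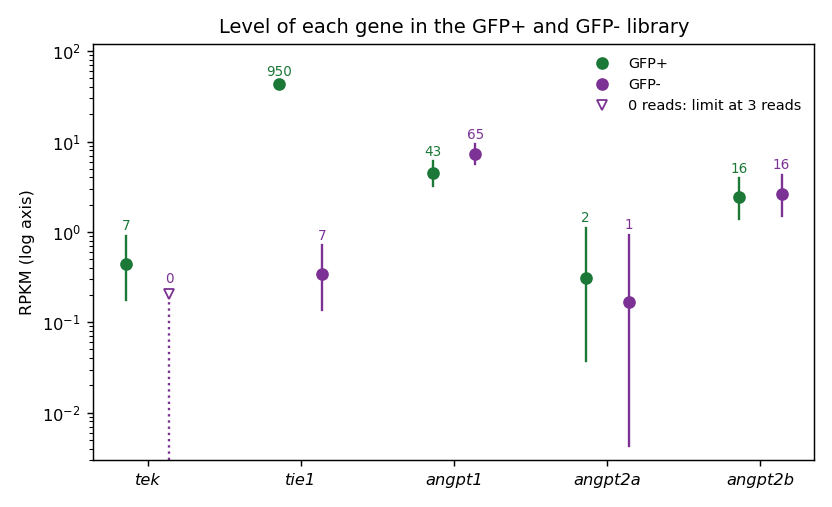
Level of each gene as RPKM on a log axis in the GFP+ library (green) and the GFP- library (purple), with exact Poisson 95% intervals of the counts as lines and the number of reads above each. Tie1 differs by 950 reads against 7, the intervals of angpt1, angpt2a and angpt2b overlap between the libraries, and the open triangle marks the limit of 0.205 RPKM for tek in GFP- cells, where no read was counted.

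Tek, the gene of the angiopoietin receptor itself, was close to the limit of detection in these libraries. It (ENSDARG00000028663) occupies bases 840239 to 863980 of chromosome 5 (Zv9, forward strand), with a listed transcript of 3562 bases. The GFP+ library gave 7 reads, or 0.442 RPKM (0.178 to 0.912), and the GFP- library 0 reads, which allows up to 0.205 RPKM by the floor of 3 reads. All reads of tek were therefore in GFP+ cells, and the level there, taken as measured, was at least 2.16-fold higher when set against the floor of the GFP- library. The count of 7 reads has its own error, and the lower end of its interval, 0.178 RPKM, lies below that floor. The adjusted p was 0.0479 by Fisher's exact test, above the threshold of 0.001. At this depth, the genes with 0 reads in GFP- cells that were called higher had at least 14 reads in GFP+ cells, so 7 reads could not have given a call. The counting interval of its log2 ratio began at 0.41 and had no upper end, so it included the ratio of tie1 and does not separate the receptors in their distribution. Their counted levels did separate: in GFP+ cells tie1 was 97.6-fold above tek per length (47.2 to 243.5). That interval treats the 7 tek reads as independent, although they covered 164 bases and so overlapped one another. Reads without a unique place were not counted, and their part in the low count of tek was not tested.

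Angiopoietin 1, the activating ligand, was found in both libraries, with somewhat more reads in GFP- cells. The gene angpt1 (ENSDARG00000030364) spans 145.7 kb (Zv9 chromosome 19, bases 48717068 to 48862764, reverse strand), with a transcript of 2164 bases. The libraries held 43 (GFP+) and 65 (GFP-) of its reads, equal to 4.47 RPKM (3.24 to 6.03) and 7.32 RPKM (5.646 to 9.325). The log2 ratio was -0.70 (-1.30 to -0.13), and the adjusted p of 0.0376 by Fisher's exact test missed the threshold of 0.001. The size of this difference depended on the scaling of the libraries: with TMM scaling the log2 ratio was -0.60 (adjusted p 0.0933), and with scaling to β-actin reads it was -0.355 (adjusted p 0.39). Unlike tie1, angpt1 was therefore well represented among the cells without EGFP.

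The angiopoietin 2 genes were fewer in reads and showed no measurable difference between the sorted populations. Angpt2b (ENSDARG00000053906), at bases 37348053 to 37400750 of chromosome 19 (Zv9, forward strand), had 16 reads in each library, or 2.43 RPKM (1.39 to 3.95) in GFP+ cells and 2.63 RPKM (1.504 to 4.273) in GFP- cells. Its log2 ratio was -0.11 (-1.21 to 0.98, adjusted p 1 by Fisher's exact test), which equals the median of -0.11 over all genes with 10 or more reads, and turned to 0.24 with scaling to β-actin reads. A level in GFP+ cells up to 1.975-fold higher or 2.311-fold lower lay within this interval. Angpt2a was counted with 2 reads (GFP+) and 1 read (GFP-), below the floor of 3 reads in both, and no difference is read from them. Its gene (ENSDARG00000014946) is described in the tables as angiopoietin 2-like and occupies bases 6230710 to 6244176 of chromosome 13 (Zv9, reverse strand). It was taken as angpt2a because the other angiopoietin 2 gene carries the symbol angpt2b.

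The order of the levels differed between the libraries. In GFP+ cells, tie1 (43.2 RPKM) was followed by angpt1 (4.47 RPKM), angpt2b (2.43), tek (0.442) and angpt2a (0.3095). Tie1 was 9.66-fold above angpt1 (7.11 to 13.4), and angpt1 was 1.84-fold above angpt2b with an interval that reached down to 1.015. Tek and angpt2a did not differ beyond counting error (ratio 1.43, 0.272 to 14.1). In GFP- cells, the order was angpt1 (7.32 RPKM), angpt2b (2.63), tie1 (0.344), angpt2a (0.167) and tek (0 reads). There angpt1 was 2.78-fold above angpt2b (1.59 to 5.149) and 21.25-fold above tie1 (9.75 to 54.9). Tie1 and angpt2a, with 7 reads and 1 read, did not differ there beyond counting error (ratio 2.06, 0.264 to 92.7). Nor did tek and angpt2a (ratio 0, 0 to 15.9). Among the 3 ligand genes, angpt1 held most of the reads in both libraries, namely 43 of 61 in GFP+ cells (70.5%, exact binomial interval 57.4% to 81.5%) and 65 of 82 in GFP- cells (79.3%, 68.9% to 87.4%). Receptor reads, in contrast, made up 957 of the 1018 reads of the 5 genes in GFP+ cells (94.0%, 92.4% to 95.4%) and 7 of 89 in GFP- cells (7.87%, 3.22% to 15.5%). These shares do not depend on how the libraries are scaled to each other. They leave out a further pair of genes named angiopoietin, described in the closing section. That pair had 20 and 15 reads in GFP+ cells and 4 and 34 in GFP- cells. Together the 3 ligand genes had a log2 ratio of -0.54 (-1.04 to -0.04), from 61 and 82 reads. The interval included 0 under the other scalings, chosen for this sum after the data were seen, with ratios of -0.43 (TMM, -0.94 to 0.06), -0.42 (size factors, -0.93 to 0.07), -0.45 (without hemoglobin, -0.95 to 0.05) and -0.19 (β-actin, -0.69 to 0.305).

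**Figure D2:**
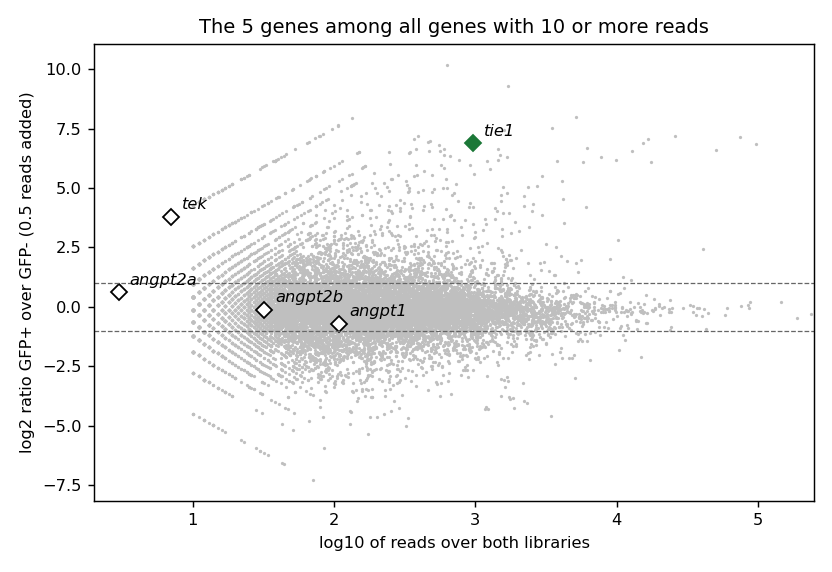
The log2 ratio of GFP+ over GFP- (0.5 reads added) against the log10 of reads over both libraries, with a grey point for each of the 15252 genes with 10 or more reads and diamonds for the 5 genes. Tie1 (filled, called) stands at 6.87 near the upper edge, angpt1 and angpt2b lie within the dashed lines at 1 and -1, and tek and angpt2a lie left of the minimum of 10 reads.

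Among the genes with 10 or more reads, 23 had a larger log2 ratio than tie1 with 0.5 reads added. Of the genes called higher, 62 had 0 reads in GFP- cells, so their place in this rank rests on the added value. The genes most like a given gene were sought among 13108 genes with a symbol by the distance in log2 ratio and log2 RPKM in GFP+ cells, which over 2 libraries is a coarse description. Nearest to tie1 were tfr2, a transferrin receptor gene (64 and 0 reads, distance 0.049), mfap4.8, of a family used as macrophage markers in zebrafish (66 and 0 reads, distance 0.25), and flt1, a VEGF receptor gene (557 and 5 reads, distance 0.33). The ratios of tfr2 and mfap4.8 rest on the 0.5 reads added. Nearest to angpt1 were rpusd2, ssbp4 and znf593 (distances 0.018 to 0.025), and nearest to angpt2b were eps8l2, rps11l and znf989 (distances 0.00090 to 0.0043). The genes near angpt2b had equal numbers of reads in both libraries, as it did.

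Among the matched receptor tyrosine kinases, tie1 stood with the VEGF receptor genes kdr, flt1 and kdrl. A further VEGF receptor gene, flt4, was listed but not matched. Besides tek and tie1, 49 of 70 listed kinase genes were matched. Of these, 5 were called higher in GFP+ cells, 8 lower and 36 neither, against 6.77% higher and 7.39% lower over all genes. One of the 8, fgfrl1a, is matched by protein accession to a transcript that the tables describe as alpha-L-iduronidase and is uncertain. The 5 higher genes were kdr (472 and 3 reads, log2 ratio 6.96, interval 5.63 to 9.47), flt1 (557 and 5 reads, 6.55, 5.46 to 8.32), kdrl (2640 and 71 reads, 5.09, 4.76 to 5.46), pdgfrb (72 and 14 reads, 2.21, 1.41 to 3.19) and csf1ra (75 and 19 reads, 1.84, 1.13 to 2.68). Kdr, kdrl and flt1 encode receptors of VEGF, pdgfrb a receptor of mural cells and csf1ra a receptor of macrophages and pigment cells. The interval of tie1 overlapped those of kdr and flt1 and lay above that of kdrl. Among kinases with 10 or more reads, the smallest ratio was that of epha4a, an Eph receptor gene (166 and 634 reads, log2 ratio -2.04). By level in GFP+ cells tie1 ranked 3 of the 51 matched kinase genes, after kdrl (110 RPKM) and fgfr4 (50.9 RPKM). In GFP- cells tie1 ranked 38. Tek ranked 38 in GFP+ cells. The median log2 ratio of the 37 listed kinases with 10 or more reads was -0.62, against -0.11 over all genes, and it was -0.36 with no minimum. The 5 higher calls held under all 7 other scalings, added values and transcript choices tried, whereas between 2 and 8 genes were lower. Lower calls among all genes ranged from 951 to 1630 under the same 7 settings. EdgeR's exact test kept 3 kinases higher (kdr, kdrl and flt1) and 0 lower, against 314 higher and 72 lower among all genes.

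**Figure D3:**
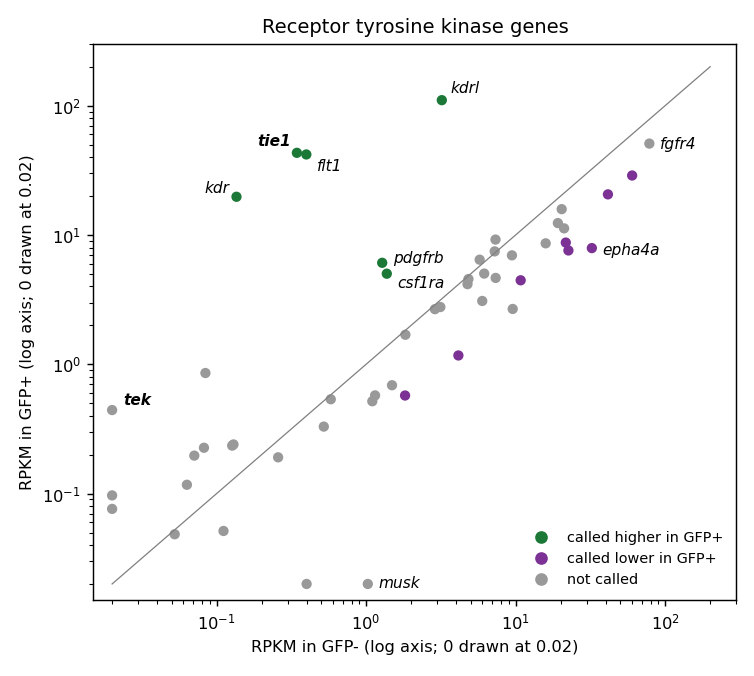
RPKM in GFP+ cells against RPKM in GFP- cells for tek, tie1 and 49 other receptor tyrosine kinase genes, both on log axes with 0 drawn at 0.02 and a line at equal levels. Tie1 (43.2 and 0.344 RPKM) lies beside flt1 (42.0 and 0.398 RPKM) far above the line, and tek lies at the left edge with 0.442 RPKM in GFP+ cells.

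The angiopoietin-like proteins resemble angiopoietins in structure but do not bind Tie2. Of 10 listed genes 7 were matched, of which 0 were called higher and 3 lower in GFP+ cells. Lower calls made up 7.39% of all 22017 genes by this rule, and higher calls 6.77%. A list of 7 genes is too small for its calls to be read as a share. The lower genes were angptl6 (8 and 46 reads, log2 ratio -2.57), the gene with the symbol angptl2a (ENSDARG00000024030, described in the tables as angiopoietin-like 2b, 20 and 53 reads, -1.497) and angptl4, an inhibitor of lipoprotein lipase (774 and 1504 reads, -1.07). Angptl4 lost its call with TMM scaling, size factors, totals without hemoglobin or β-actin scaling, and angptl2a lost it with β-actin scaling. EdgeR's exact test called 0 of the 7, against 314 higher and 72 lower among all genes. The largest ratio was that of angptl5 (25 and 8 reads, 1.47, adjusted p 0.0259 by Fisher's exact test), which was not called. The median over the 7 genes was -0.96, against -0.11 over all genes. Angptl4 and angptl7 were more abundant than any angiopoietin, with 83.1 and 54.4 RPKM in GFP+ cells and 172 and 97.8 RPKM in GFP- cells.

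Proteins that act beside the Tie receptors were matched for 7 of 12 listed genes, of which 2 were called higher and 0 lower in GFP+ cells. The same rule gave a higher call to 6.77% of the 22017 genes and a lower call to 7.39%. From 7 genes, 2 calls are too few to be set beside these shares. Ptprb, which encodes the endothelial phosphatase VE-PTP that removes phosphate from Tie2 in mammals, was counted with 249 and 36 reads (9.24 and 1.45 RPKM, log2 ratio 2.66, interval 2.17 to 3.22, adjusted p 1.43e-35 by Fisher's exact test). Itgb1a, which encodes an integrin β1 chain, had 272 and 104 reads (log2 ratio 1.27, 0.94 to 1.61). Svep1, whose product is a partner of Tie1 in zebrafish, had 44 and 69 reads (0.942 and 1.598 RPKM). Its log2 ratio of -0.76 (-1.34 to -0.20) and adjusted p of 0.0204 by Fisher's exact test did not meet the rule. The integrin chains itga5 (174 and 225 reads), itgav (421 and 421) and itgb1b (40 and 32) were not called. The smallest ratio was that of ccbe1 (3 and 17 reads, log2 ratio -2.44, adjusted p 0.0043 by Fisher's exact test). Ccbe1 encodes a secreted factor of lymphatic growth and not a partner of Tie receptors, but the count of 7 and the median of this list include it. The median was -0.11, as over all genes, and 0.045 with a minimum of 50 reads. Both calls were lost with edgeR's exact test, which called 314 higher and 72 lower among all genes.

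Of the 31 listed genes that carry signals below Tie receptors, 28 were matched. Of these, 5 were called higher, 3 lower and 20 neither, against 6.77% higher and 7.39% lower over all genes. The highest was ptpn11b, for a Shp2 phosphatase, with 681 and 22 reads (47.3 and 1.65 RPKM, log2 ratio 4.81, interval 4.23 to 5.52), while its paralogue ptpn11a had 570 and 662 reads (log2 ratio -0.33). Both genes of FoxO1, the transcription factor that Akt restrains, were higher: foxo1b had 79 and 8 reads (3.11, 2.14 to 4.45) and foxo1a 48 and 10 reads (2.09, 1.15 to 3.30). Akt3b, for an Akt kinase, had 137 and 38 reads (1.72), and grb10b, for an adaptor, had 235 and 76 reads (1.51). Akt2, the most abundant matched Akt gene, had 872 and 752 reads (0.10, -0.04 to 0.24) and was not called, nor was foxo3b with 127 and 175 reads. The PI3-kinase genes pik3r1 (522 and 549 reads, -0.19) and pik3cb (239 and 213 reads, 0.05) were not called. Nor were pik3r2 (24 and 11 reads, 0.98) and pik3ca (31 and 9 reads, 1.62). The lower genes encode adaptors: dok1a (13 and 45 reads, -1.87), nck2b (103 and 260 reads, -1.44) and nck2a (108 and 244 reads, -1.29). The adaptor paralogues dok1b (33 and 11 reads, 1.43) and grb10a (239 and 263 reads, -0.25) were not called. The median log2 ratio of the 25 transducers with 10 or more reads was 0.05, against -0.11 over all genes, and it was 0.19 with no minimum and -0.10 with a minimum of 50 reads, so its sign depended on that minimum. With β-actin scaling 7 were higher and 1 lower, against 2309 higher and 951 lower among all genes. With edgeR's exact test ptpn11b alone was called, against 314 higher and 72 lower among all genes.

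**Figure D4:**
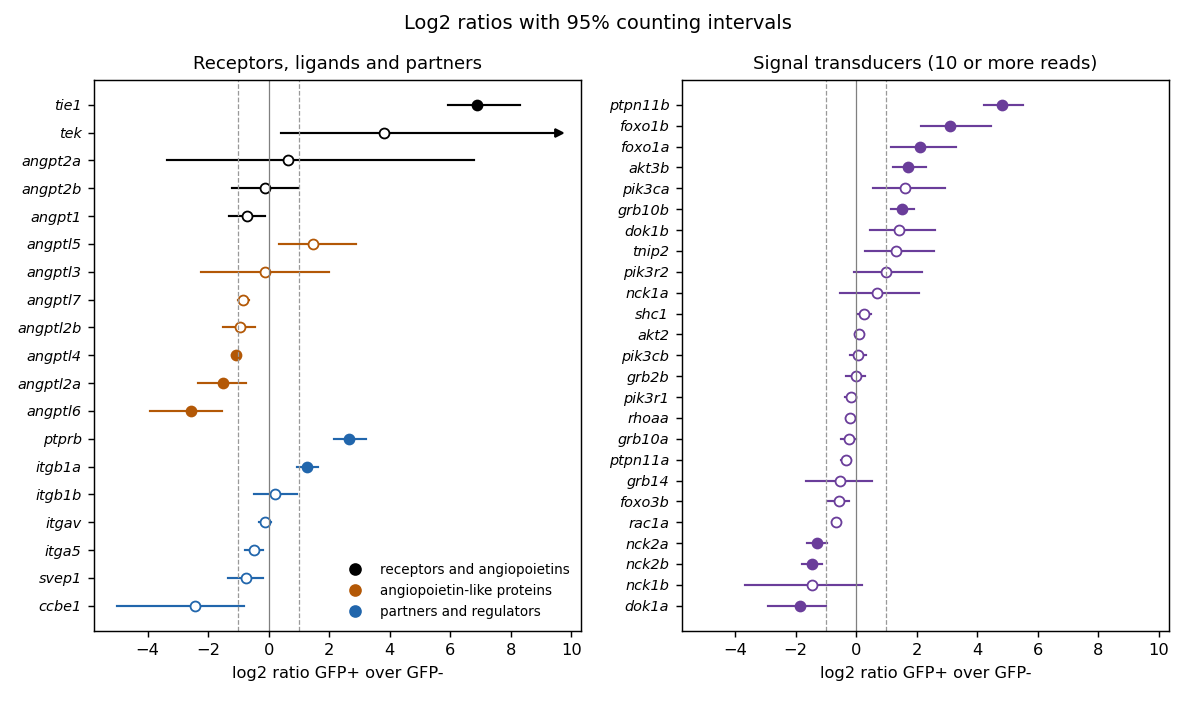
Log2 ratios of GFP+ over GFP- with 95% counting intervals. On the left are receptors and angiopoietins (black), angiopoietin-like proteins (orange) and the list of partners with ccbe1 (blue). On the right are 25 signal transducers with 10 or more reads. Filled points mark called genes, and an arrow marks an interval with no upper end. Tie1 (6.87), ptpn11b (4.81) and foxo1b (3.11) lie furthest to the right among the called genes, and the 3 called angiopoietin-like genes lie left of -1.

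The reads of each gene can also be judged by how much of the transcript they covered. A transcript with 1 read was covered over 49 bases in 99.97% of cases within 1 base, which gives the length of a read. The 950 reads of tie1 in GFP+ cells covered 67.3% of its transcript, or 3331 of 4952 bases, which left the rest without a counted read. Of 69 other transcripts with reads and length within 1.25-fold of these, the median coverage was 93.0% (range 17.2% to 99.4%), and 12 of 69 were covered less than tie1. The 7 tie1 reads of GFP- cells covered 343 bases, as 7 reads without overlap would. The 7 tek reads, in contrast, covered 164 bases, so that they overlapped one another. The 200 like transcripts had a median of 6.93% against 4.60% for tek, and 49 of them were covered less than tek. The counting intervals of tek treat its 7 reads as independent, which was not tested. Angpt1 was covered over 54.9% and 67.0% of its length and angpt2b over 37.5% and 42.2%, above the medians of like transcripts in both libraries. Only reads with a unique place were counted and each of the 5 genes had 1 listed transcript, so reads shared with another transcript or gene would be missing from the counts. Their part in the low count of tek was not tested.

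**Figure D5:**
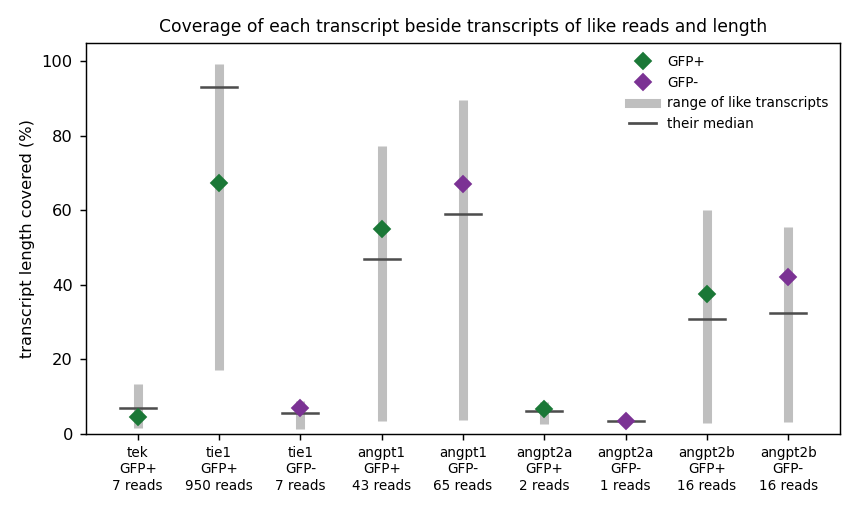
Share of each transcript covered by reads, in percent of its length, for each of the 5 genes in the GFP+ (green) and GFP- (purple) library, beside the range (grey bar) and the median (dark line) of other transcripts whose reads and length were within 1.25-fold. Tie1 in GFP+ cells lies at 67.3%, below the median of 93.0%, and angpt1 and angpt2b lie above their medians.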

How the data were processed

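RNA of cells sorted from embryos of the line Tg(fli1a:EGFP)y1 was sequenced from Illumina TruSeq libraries, 1 for GFP+ and 1 for GFP- cells. The authors deposited counts of uniquely mapped reads per Ensembl transcript of Zv9, its length, the percent of bases covered and the RPKM, which recomputation from the deposited counts returned. The aligner and the counter are not given in the sources used here. Totals of 4.44 M and 4.11 M reads (M for 1000000) set the precision.

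Reads were summed per gene over transcripts, and a gene absent from a table counted 0. The 27808 transcripts belong to 22017 genes, of which 17976 took a symbol from a table of gene IDs or, by protein accession, from RefSeq on GRCz12tu. Fisher's exact test was run over all genes, with Benjamini-Hochberg adjustment. Intervals are 95% Clopper-Pearson (ratios and shares) or exact Poisson (levels). The calls were also run on simulated libraries with counting error only, in which 200 genes with 40 or more reads were changed 4-fold. These held no variation between replicates, so they do not show how the calls would fare with it. Lists were described by counts and medians. Named genes were the 5 genes, listed pathway genes with 10 or more reads over both libraries, the extremes of the receptor kinase list and its higher calls, and the 3 nearest genes. Markers that were exceptions to their list were named after their values were seen. So were the called markers of mural cells, mesenchyme and neural crest, and the most abundant of that list, notch3 and tagln. The members and lists were chosen with earlier results of these data known. Sequences and promoter motifs were not analysed here. Alternatives were TMM scaling, size factors, totals without hemoglobin, β-actin scaling, 5 reads or 1 RPKM added, the most-read transcript, edgeR's exact test, other minimums, transcripts and the fold alone. Software was edgeR 4.0.16 in R 4.3.3 and, in Python 3.11.15, SciPy 1.17.1, pandas 2.3.3, matplotlib 3.10.9 and NumPy 2.4.6.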

Additional observations from a re-analysis of the deposited data

How the results depend on the processing

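No paired analysis was possible because only 1 library stands for each group, and for the same reason no replicate could be left out. Tie1 was called higher under all 8 alternatives, with log2 ratios from 5.04 (1 RPKM added) to 7.22 (scaled to β-actin reads). The log2 ratio of tek ranged from 0.53 to 5.83 with the value added, since it rests on 0 reads in GFP- cells, that of angpt1 from -0.70 to -0.355, and that of angpt2a from 0.11 to 0.97. Neither these genes nor angpt2b were called under any of the 8. Not all of the 8 are separate checks. The most-read transcript repeats the counts of these genes, which had 1 listed transcript each. Adding 5 reads or 1 RPKM changes the ratio and keeps the adjusted p. The ratio of angpt2b turned to 0.236 with scaling to β-actin reads. Of all genes, 1491 were called higher and 1627 lower. Scaling to β-actin reads moved the median of all genes from -0.113 to 0.236 and gave 2309 higher and 951 lower, so that 70.8% of the calls were higher in place of 47.8%. The fold alone, here over all genes with no minimum of reads, gave 4710 and 4953, and edgeR's exact test 314 and 72. TMM scaling, size factors of 1 for both libraries (reads as counted), totals without hemoglobin, a minimum of 20 reads and transcripts in place of genes kept both counts within 1.5 times. The cause of these differences was not tested. Depth limits tek and angpt2a most, with 7 and 3 reads over both libraries.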

Other observations

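A further pair of genes bears the name angiopoietin in the tables but is outside the 5 genes, and both were chosen after their values were seen. The gene described as angiopoietin 1-like (ENSDARG00000076787, chromosome 6 of Zv9 from 51815743 to 51984937, forward strand), to which the table of gene IDs gives the symbol of angiopoietin 4, was counted with 15 reads (GFP+) and 34 reads (GFP-). Its levels were 0.630 and 1.545 RPKM and its log2 ratio was -1.27 (95% interval -2.28 to -0.38), with an adjusted p of 0.0132 by Fisher's exact test, so it was not called. The gene described as angiopoietin 4-like (ENSDARG00000012581, chromosome 17 of Zv9 from 33412911 to 33425919, reverse strand) was counted with 20 reads (GFP+) and 4 reads (GFP-). Its levels were 3.42 and 0.740 RPKM and its log2 ratio was 2.07 (0.63 to 4.22), with an adjusted p of 0.0069 by Fisher's exact test, which also missed the threshold of 0.001. The intervals of these genes do not overlap, and that of the angiopoietin 4-like gene lies above 0. It thus had the largest share of reads in GFP+ cells among the angiopoietin-named genes with 10 or more reads, and with 24 reads in all this rests on few counts.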
